A study of Mus musculus with 12 samples.

Results

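Small nucleolar RNA (snoRNA) host genes are transcribed as long noncoding RNAs that carry snoRNAs in their introns. The 7 hosts described here are Snhg1, Snhg3, Snhg5, Snhg6, Snhg8, Snhg12 and Gas5, out of 41457 genes listed for each library. They were chosen by name, with the earlier result known that Snhg6 was lower at the later day in every cell type. The day contrast is therefore given as a description, with no test.

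A snoRNA is cut from the spliced-out intron of its host and guides the chemical modification of ribosomal and spliceosomal RNA. Box C/D snoRNAs guide methylation of the ribose and box H/ACA snoRNAs guide the change of uridine to pseudouridine. The spliced host RNA that is left over has no long reading frame. In many hosts it begins with a terminal oligopyrimidine (TOP) tract like the mRNAs of ribosomal proteins, is engaged by ribosomes and is removed by nonsense-mediated decay (NMD), so it tends to be low where translation is active and to build up where translation is blocked. Gas5, the growth arrest specific transcript, was named for its build-up in cells that have stopped growing. T helper cells pass from a small resting state to fast growth after activation, and ribosome production is one of the processes that change with it.

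The study cultured CD4+ T cells from the spleen and lymph nodes of C57BL/6 mice, of the wild type (WT) or of a genotype labelled NFATc1/ΔS, which the labels do not define further. The age of the mice is not given in the sources used here. Th1 cultures received IL-12 and an antibody to IL-4, Th2 cultures IL-4 and an antibody to IFN-γ, and Th17 cultures TGFβ, IL-6 and antibodies to IFN-γ and IL-4. Th17 cultures also differed in medium (IMDM in place of RPMI) and in a lower anti-CD3 concentration, so for Th17 the cell type and the medium cannot be told apart. Poly(A) RNA was sequenced after 2.5 and after 3.5 days of culture, giving 12 libraries, 1 for each combination of cell type, genotype and day. No combination has a second library. The 4 libraries of a cell type, which span both genotypes and both days, served as its replicates, and the 6 pairs of WT and NFATc1/ΔS libraries served for the genotype. The labels do not tell if each library had its own mouse or culture, and p-values then measure only how far these libraries spread, which may be technical.

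The libraries held 13417121 to 17774400 reads in genes, of which introns held 2.28 to 4.34%. The lineage genes checked followed the labels. Tbx21, the regulator of Th1 cells, was at 34.7 to 66.5 CPM (a gene's reads scaled to the size of its library) in Th1 against at most 4.18 in the other libraries, and Gata3, that of Th2 cells, at 561 to 741 CPM in Th2 against at most 94.2. Il17f, a cytokine of Th17 cells, was at 8.11 to 59.95 CPM in Th17 against at most 1.145 in the other libraries. Both Th1 libraries of day 2.5 stood apart. The log2 CPM of all genes in the Th1 WT library of day 2.5 correlated at most 0.956 with another Th1 library and up to 0.978 with a Th17 library, and the Th1 NFATc1/ΔS library of day 2.5 correlated at most 0.955 with another Th1 library. Results on Th1 are therefore given with and without these 2 libraries. Without them, Th1 was represented by its 2 libraries of day 3.5 alone, so such fits also changed the day at which Th1 was read. Their spread then came mostly from the Th2 and Th17 libraries. Markers of other cells were not equal between the cell types. The summed level of 9 B cell genes was 5.95 to 10.7 CPM in Th1, 37.8 to 51.4 in Th2 and 15.5 to 32.9 in Th17, with none at 0 throughout a cell type. The summed level of 12 dendritic and myeloid genes was 2.08 to 8.64 CPM in Th1, 9.40 to 12.3 in Th2 and 3.16 to 6.65 in Th17, with Adgre1 at 0 in Th1 and Siglech at 0 in Th2 and Th17. The 8 genes of CD8 T and NK cells summed to 56.4 to 158 CPM in Th1, 83.3 to 243 in Th2 and 39.7 to 72.4 in Th17, and the 6 erythroid genes to 2.90 to 7.74, 1.62 to 21.3 and 1.60 to 23.5 CPM.

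The snoRNAs inside the hosts are what the hosts are known for, so a few are shown first. The annotation places 29 snoRNA genes inside the 7 hosts on the same strand: 10 in Gas5, 8 in Snhg1, 5 in Snhg12, 2 each in Snhg3 and Snhg5, and 1 each in Snhg6 and Snhg8. Gas5 and Snhg12 each list 1 snoRNA under 2 overlapping gene records. The lines below give 1 snoRNA of each host (2 for Snhg5), 5′ to 3′ as DNA letters from the GENCODE vM21 transcripts (build GRCm38). Capitals mark the C box core TGATGA and the D box CTGA of box C/D snoRNAs, or the ACA of box H/ACA snoRNAs.

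Snord87 (Snhg6, chr1:9942463-9942549, minus strand): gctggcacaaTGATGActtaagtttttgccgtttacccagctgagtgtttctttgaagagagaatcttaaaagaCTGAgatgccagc
Snord47 (Gas5, chr1:161038082-161038158, plus strand): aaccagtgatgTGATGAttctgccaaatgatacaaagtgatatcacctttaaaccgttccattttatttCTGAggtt
Gm25855 (Snhg1, chr19:8723993-8724064, plus strand): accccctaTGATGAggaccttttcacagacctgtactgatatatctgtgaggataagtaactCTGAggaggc
Snord99 (Snhg12, chr4:132310691-132310764, plus strand): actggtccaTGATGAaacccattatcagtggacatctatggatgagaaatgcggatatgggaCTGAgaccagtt
Snora24 (Snhg8, chr3:123507937-123508066, minus strand): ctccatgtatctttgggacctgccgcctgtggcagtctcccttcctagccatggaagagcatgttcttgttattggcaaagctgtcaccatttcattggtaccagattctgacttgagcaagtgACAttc
Snord50a (Snhg5, chr9:88521529-88521600, minus strand): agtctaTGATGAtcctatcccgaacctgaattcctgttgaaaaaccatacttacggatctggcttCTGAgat
Snord50b (Snhg5, chr9:88521797-88521868, minus strand): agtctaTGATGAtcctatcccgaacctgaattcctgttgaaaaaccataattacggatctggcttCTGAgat
Snora73a (Snhg3, chr4:132352775-132352979, minus strand): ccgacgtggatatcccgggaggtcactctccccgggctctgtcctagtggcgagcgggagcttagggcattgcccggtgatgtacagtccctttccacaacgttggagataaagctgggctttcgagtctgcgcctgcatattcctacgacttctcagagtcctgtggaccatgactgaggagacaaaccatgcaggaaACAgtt

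TGATGA within the first 20 bases together with CTGA within the last 16 was found in 17 of the 29, and in 20.31% of all 1507 annotated snoRNAs. ACA directly before the last 3 bases was found in 6 of the 29, and in 18.31% of all; the remaining 6 held neither on their own strand. Snord50a and Snord50b, both in Snhg5, have 72 bases each and differ by C50A, counted from the 5′ end. These short RNAs have no poly(A) tail and were hardly seen in the libraries: 19 of the 29 had no read in any library, which allows up to 3 reads a library, or 0.169 to 0.224 CPM, as counting error only. Snora73b in Snhg3 had the most, with 65 reads over the 12 libraries. The libraries thus measure the host transcripts and not the snoRNAs.

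The region around the start of each host is shown next, because the TOP tract lies there. RefSeq's promoter table (GRCm38.p6) held 7 start windows for 6 of the 7 hosts, with 2 for Gas5; Snhg6 had no entry. Each line gives 45 bases before the annotated start and 25 from it on, 5′ to 3′ on the strand of the gene. Capitals mark a TATA that lies 20 to 40 bases before the start, and the longest run of at least 6 C or T letters that comes within 10 bases of the start.

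Gas5, downstream start (chr1:161035121-161035190, plus strand): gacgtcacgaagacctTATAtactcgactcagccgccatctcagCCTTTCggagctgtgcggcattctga
Gas5, upstream start (chr1:161034556-161034625, plus strand): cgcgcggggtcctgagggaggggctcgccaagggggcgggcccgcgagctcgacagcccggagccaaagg
Snhg1 (chr19:8723442-8723511, plus strand): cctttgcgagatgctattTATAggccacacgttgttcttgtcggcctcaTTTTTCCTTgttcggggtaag
Snhg12 (chr4:132308633-132308702, plus strand): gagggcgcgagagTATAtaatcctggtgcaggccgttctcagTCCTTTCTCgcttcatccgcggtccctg
Snhg8 (chr3:123508312-123508381, minus strand): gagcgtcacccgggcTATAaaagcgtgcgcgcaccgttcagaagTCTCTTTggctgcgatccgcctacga
Snhg5 (chr9:88522873-88522942, minus strand): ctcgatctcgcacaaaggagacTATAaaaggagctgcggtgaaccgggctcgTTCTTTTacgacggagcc
Snhg3 (chr4:132353662-132353731, minus strand): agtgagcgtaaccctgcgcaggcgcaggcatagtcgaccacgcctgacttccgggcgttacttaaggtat

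The TATA and the pyrimidine run stood together in 5 of the 7 windows: the downstream start of Gas5, Snhg1, Snhg5, Snhg8 and Snhg12. Over all 32851 windows of the table, 5.49% held the TATA and 29.97% the run, searched on the gene's strand. Over the full 300 bases of each window, on both strands, the E-box CACGTG was in 0 of 7 (7.15% of all), GGAAA, the core that NFAT factors bind, in 6 of 7 (61.34% of all), and TGACG, which does not overlap it, in 3 of 7 (20.81% of all). These matches describe letters and not bound sites.

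Per length, Gas5 was the most abundant host. TPM (exon reads over the annotated exon length, scaled to one sum in each library, as computed here) had a median over the 12 libraries of 247 for Gas5 (range 95.7 to 458), 104 for Snhg8 (63.3 to 132), 90.9 for Snhg6 (54.5 to 179) and 74.4 for Snhg1 (41.5 to 161). Snhg5 followed with a median TPM of 32.4 (13.5 to 64.2), Snhg12 with 27.4 (8.79 to 64.4) and Snhg3 with 19.1 (13.95 to 30.5). The ranges of neighbours in this order overlapped throughout, so the order of the middle hosts was not fixed across libraries. The annotated exons of Snhg1, Snhg8 and Snhg12 cover the whole gene, and those of Gas5 and Snhg5 nearly all of it (3760 of 4118 bases in Gas5 and 1730 of 1880 in Snhg5), so unspliced RNA counts as exon reads there and the level per length is understated. The hosts are small genes: Gas5 lies at chr1:161034422-161038539, Snhg6 at chr1:9941959-9944118, Snhg1 at chr19:8723475-8726443, Snhg12 at chr4:132308623-132311024, Snhg8 at chr3:123507552-123508404, Snhg5 at chr9:88521050-88522929 and Snhg3 at chr4:132348014-132353686 (GRCm38).

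Snhg6, host of Snord87, was lower in Th1 than in both other cell types. In Th1 cells it stood at 42.9 CPM (WT) and 37.0 CPM (NFATc1/ΔS) at day 2.5, and at 21.5 and 22.7 CPM at day 3.5. In Th2 cells it stood at 62.5 and 66.6 CPM at day 2.5 and at 37.6 and 32.7 CPM at day 3.5. In Th17 cells it stood at 70.6 and 61.5 CPM at day 2.5 and at 33.0 and 30.8 CPM at day 3.5. At each day both Th1 libraries lay below all Th2 and Th17 libraries, while over both days the ranges overlapped. The difference was -0.68 ± 0.10 (log2, SE) from Th2, with an adjusted p of 0.0016 (14% of genes were lower by this rule), and -0.63 ± 0.10 from Th17, with an adjusted p of 0.0127 (2.83% of genes were lower), by the quasi-likelihood test of edgeR, with p adjusted over all genes after Benjamini and Hochberg. Th2 and Th17 differed by 0.05 ± 0.10 (adjusted p = 0.794). Without the 2 Th1 libraries of day 2.5, the differences of Th1 were -0.62 ± 0.10 (adjusted p = 0.000609) and -0.58 ± 0.10 (adjusted p = 0.00203). Without the Th17 WT library of day 2.5 the difference from Th17 was -0.59 ± 0.12 with an adjusted p of 0.0568, which missed the threshold of 0.05. The B cell genes went the same way in both Th1 comparisons. Of the 8 tested, 7 were lower in Th1 than in Th2 (14% of all genes) and 5 were lower in Th1 than in Th17 (2.83% of all genes). Between Th2 and Th17, where Snhg6 differed by 0.05 ± 0.10, 4 of the 8 were higher in Th2 (6.36% of all genes) and 0 lower (5.67%). The part of B cells in the Snhg6 difference was not tested. In bulk RNA, fewer cells of a type and less RNA per cell cannot be told apart.

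Snhg6 was also the 1 host with enough intron reads to test, although they were few. Introns held 8, 13, 20 and 24 Snhg6 reads in the 4 Th1 libraries, 5 to 10 in Th2 and 8 to 18 in Th17. As a share of the gene's reads this was 1.23% (95% Wilson interval 0.624 to 2.41) in Th1 WT at day 2.5, 3.96% (2.33 to 6.66) in Th1 WT at day 3.5, 3.54% (2.30 to 5.40) in Th1 NFATc1/ΔS at day 2.5 and 5.94% (4.02 to 8.69) in Th1 NFATc1/ΔS at day 3.5. The shares lay between 0.556 and 2.13% in Th2 and between 0.802 and 3.02% in Th17. The Th1 shares were the higher ones, with 1 Th1 library, WT at day 2.5, inside the range of the other cell types. Genes entered the intron fits by a filter on intron reads (minimum count 10). With 5 to 10 such reads in Th2, Snhg6 met it mainly through Th1 and Th17. The p-values of the intron fits for Th1 against Th2 are thus no independent support for more intron reads in Th1. The difference in exon reads minus that in intron reads, fitted side by side, was -1.61 ± 0.36 (log2, SE) for Th1 against Th2, with an adjusted p of 0.0145 in edgeR, where 1.75% of 7317 genes passed in that direction. For Th1 against Th17 it was -1.15 ± 0.32 (adjusted p = 0.0864), where 0.588% of genes passed in that direction. Without the Th1 libraries of day 2.5 these values were -1.39 ± 0.41 (adjusted p = 0.0119) and -0.93 ± 0.38 (adjusted p = 0.105). The intron reads alone differed by 0.80 ± 0.37 between Th1 and Th2 (edgeR adjusted p = 0.152, 17% of 7820 genes called). The share itself differed by 2.58 percentage points between Th1 and Th2 (exact permutation test, two-sided, p = 0.0571, adjusted p = 0.5 over 16 tests, smallest p possible 0.0286). Between genotypes the mean share was 2.75% in NFATc1/ΔS and 1.74% in WT (exact permutation test by sign flips, p = 0.0625, adjusted p = 0.5). Mcmdc2, a gene on the other strand that overlaps 127 bases of Snhg6, was at 0 to 0.458 CPM in every library, and the kit is not said to keep strand. The other 6 hosts had at most 3 intron reads in any library.

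By day, Snhg6 was lower at day 3.5 in 6 of 6 series of cell type and genotype, which is the pattern that chose it. The log2 ratios of day 3.5 to day 2.5 were -1.0016 (WT) and -0.71 (NFATc1/ΔS) in Th1, -0.73 and -1.02 in Th2, and -1.095 and -0.9984 in Th17. The level at day 3.5 was 0.468 to 0.613 of that at day 2.5. Among all genes tested 3.91% were lower in 6 of 6 series. No other member did this: Gas5 was lower in 5 series, and Snhg1, Snhg3, Snhg5, Snhg8 and Snhg12 in 4 each.

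**Figure D1:**
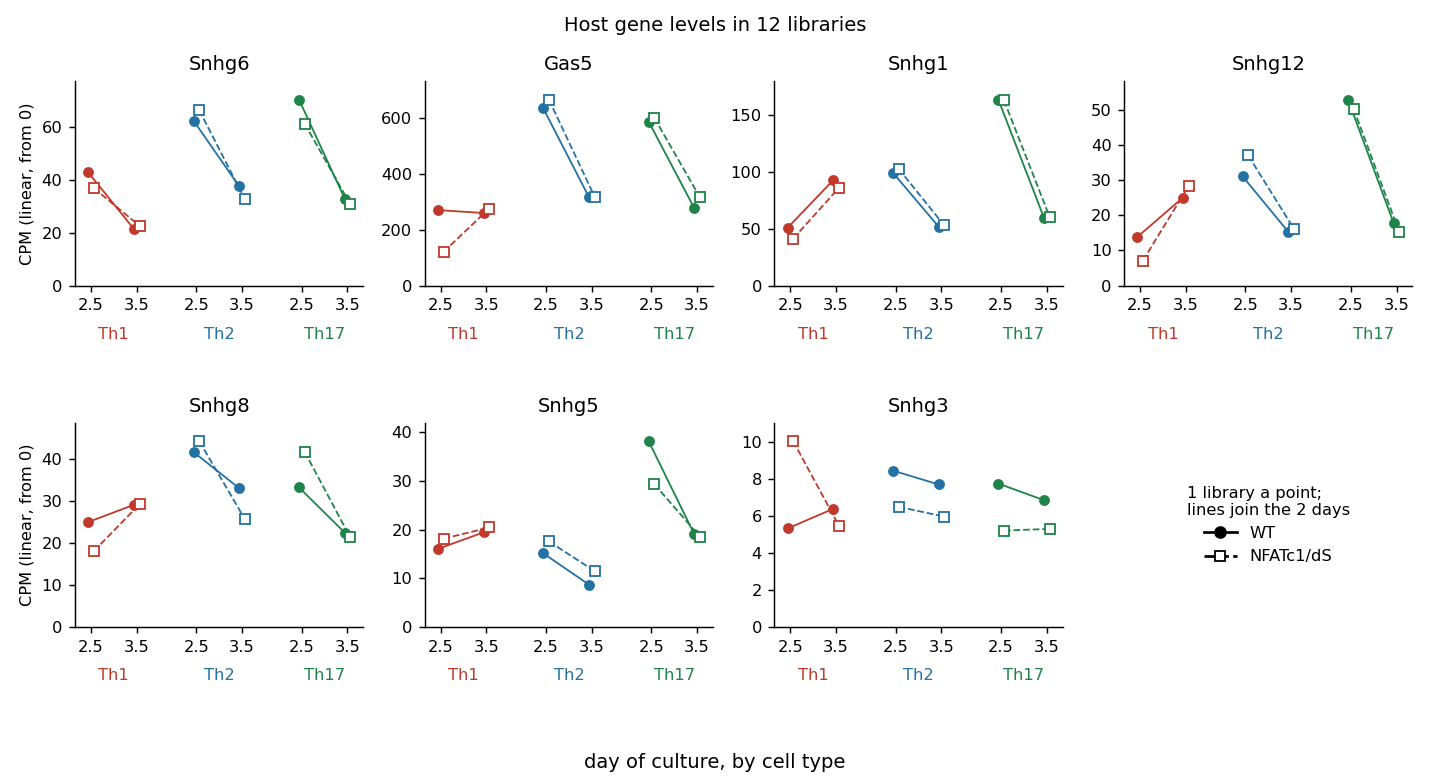
Level of each host in CPM (linear axis from 0) by day of culture and cell type; each point is 1 library, filled for WT and open for NFATc1/ΔS (written NFATc1/dS in the plots), and lines join the days. Snhg6 is lower at day 3.5 in all 6 series, whereas Snhg1 and Snhg12 are lower in the Th2 and Th17 series and higher in both Th1 series.

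Gas5, which hosts the most snoRNAs of the group, was lowest of all 12 libraries in Th1 NFATc1/ΔS at day 2.5, as were Snhg1, Snhg8 and Snhg12 and 24.3% of all genes tested. Its CPM in Th1 was 271 (WT) and 120 (NFATc1/ΔS) at day 2.5, and 260 and 276 at day 3.5. In Th2 it was 635 and 667 CPM at day 2.5 and 317 and 319 at day 3.5. In Th17 it was 588 and 602 CPM at day 2.5 and 277 and 316 at day 3.5. The 4 Th1 libraries lay below the 4 Th2 libraries and below the 4 Th17 libraries, there by a small margin (276 CPM in the highest Th1 library and 277 in the lowest Th17 library). The groups thus did not overlap, as for 32.5% of all genes between Th1 and Th2 and 14.4% between Th1 and Th17. The differences did not pass: -0.95 ± 0.36 against Th2 (edgeR adjusted p = 0.0758) and -0.83 ± 0.36 against Th17 (adjusted p = 0.197). Without the 2 Th1 libraries of day 2.5 the difference from Th2 was -0.25 ± 0.07 and passed (adjusted p = 0.014), and that from Th17 was -0.14 ± 0.07 (adjusted p = 0.174). Without Th1 WT or Th1 NFATc1/ΔS of day 3.5 the difference from Th2 also passed, at -1.22 ± 0.38 (adjusted p = 0.0478) and -1.21 ± 0.38 (adjusted p = 0.0468). The Th1 NFATc1/ΔS library of day 2.5 alone moved the size: without it the difference was -0.55 ± 0.19 from Th2 (adjusted p = 0.0575) and -0.44 ± 0.19 from Th17 (adjusted p = 0.202).

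Snhg1 and Snhg12 moved in opposite directions by day in Th1 and in the other cell types. Snhg1 lies 106 bases from Slc3a2 and hosts a series of C/D snoRNAs; Snhg12 hosts mainly H/ACA snoRNAs. Snhg1 was at 50.7 (WT) and 41.2 CPM (NFATc1/ΔS) in Th1 at day 2.5 and at 92.7 and 85.8 CPM at day 3.5. In Th2 it was at 99.1 and 103 CPM at day 2.5 and at 51.7 and 52.8 at day 3.5, and in Th17 at 163 and 163 CPM and then at 59.4 and 60.3. At day 2.5 Th1 was the lowest cell type and Th17 the highest; at day 3.5 Th1 was the highest, and WT and NFATc1/ΔS stayed close to each other at each point. Snhg12 was at 13.8 and 7.07 CPM in Th1 at day 2.5 and at 24.98 and 28.2 CPM at day 3.5. In Th2 it was at 31.0 and 36.9 CPM and then at 15.2 and 16.1, and in Th17 at 52.8 and 50.2 CPM and then at 17.7 and 15.1. Its order of cell types was the same as that of Snhg1 at day 2.5, with Th1 highest again at day 3.5. The log2 ratios of day 3.5 to day 2.5 averaged 0.96 in Th1 and -1.20 in Th2 and Th17 for Snhg1, and 1.43 and -1.38 for Snhg12.

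Averaged over the days, neither gene differed between cell types by a difference that passed in the fit of all 12 libraries. For Snhg1 the edgeR difference was -0.02 ± 0.44 for Th1 against Th2 (adjusted p = 0.972), -0.53 ± 0.45 for Th1 against Th17 (adjusted p = 0.491) and -0.50 ± 0.43 for Th2 against Th17 (adjusted p = 0.527). For Snhg12 it was -0.23 ± 0.59, -0.63 ± 0.60 and -0.41 ± 0.55, with adjusted p of 0.79, 0.531 and 0.714. With Th1 represented by its day 3.5 libraries alone, Snhg1 was higher in Th1 by 0.90 ± 0.12 than in Th2 (adjusted p = 0.000316) and by 0.44 ± 0.13 than in Th17 (adjusted p = 0.0266). Snhg12 was then higher in Th1 by 0.92 ± 0.16 (adjusted p = 0.00161) and by 0.56 ± 0.16 (adjusted p = 0.0318). The direction thus turned when the Th1 libraries of day 2.5 were left out. In a fit of the 8 Th2 and Th17 libraries alone, Snhg1 was lower in Th2 than in Th17 by 0.46 (log2 difference -0.46 ± 0.10, adjusted p = 0.00817), and Snhg12 differed by -0.36 ± 0.13 (adjusted p = 0.0534).

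Snhg8, host of Snora24, had a smaller span with the same shape. It was at 24.9 (WT) and 18.1 CPM (NFATc1/ΔS) in Th1 at day 2.5 and at 29.0 and 29.1 CPM at day 3.5, at 41.5 and 44.1 and then 32.9 and 25.6 CPM in Th2, and at 33.1 and 41.6 and then 22.4 and 21.3 CPM in Th17. All Th2 and Th17 libraries of day 2.5 lay above all Th1 libraries, and at day 3.5 the Th1 libraries lay within the range of Th2 and above Th17. The edgeR difference of Th1 was -0.46 ± 0.26 from Th2 (adjusted p = 0.201) and -0.16 ± 0.26 from Th17 (adjusted p = 0.717). Without the Th1 libraries of day 2.5 it was 0.05 ± 0.11 from Th2 (adjusted p = 0.732), and Snhg8 was higher in Th1 than in Th17 by 0.35 ± 0.11 (adjusted p = 0.0336).

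Snhg5, host of Snord50a and Snord50b, was lower in Th2 than in Th17. It was at 15.1 (WT) and 17.5 CPM (NFATc1/ΔS) in Th2 at day 2.5 and at 8.71 and 11.5 CPM at day 3.5. In Th17 it was at 38.1 and 29.3 CPM at day 2.5 and at 19.0 and 18.5 CPM at day 3.5, so that every Th17 library lay above every Th2 library, as for 23.9% of all genes in either direction. In Th1 it was at 16.03 and 18.1 CPM and then at 19.4 and 20.4 CPM. The difference between Th2 and Th17 was -0.98 ± 0.24 (edgeR adjusted p = 0.0286, 5.67% of genes were lower by this rule). It did not pass in 6 of the 12 fits that each left out 1 library, where the adjusted p ran from 0.066 to 0.122: Th2 WT of either day, Th2 NFATc1/ΔS of day 3.5, Th17 WT of either day and Th17 NFATc1/ΔS of day 2.5. Against Th2, Th1 differed by 0.55 ± 0.24 (adjusted p = 0.109), and by 1.02 ± 0.15 without its libraries of day 2.5, which passed (adjusted p = 0.000213); without the Th1 WT library of day 2.5 alone it was 0.75 ± 0.22 (adjusted p = 0.0431). Against Th17, Th1 differed by -0.43 ± 0.24 (adjusted p = 0.294).

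Snhg3 was the lowest and the least certain member. Its 70 to 154 reads a library gave 5.23 to 10.1 CPM, and only 23.1% of those reads mapped uniquely, against 94.7 to 99.9% in the other 6 hosts. Snhg3 overlaps Rcc1, a gene for a nucleotide exchange factor of Ran, over 5592 bases on the same strand, and reads of the overlap cannot be told apart. The highest value, 10.1 CPM, was in Th1 NFATc1/ΔS at day 2.5, where Rcc1 was at 138 CPM against 31.0 to 53.8 CPM elsewhere. Cell types differed by at most 0.19 ± 0.23 (Th2 against Th17, edgeR adjusted p = 0.688).

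In all, 1 of 7 members passed between Th1 and Th2 (28.6% of 12797 genes passed), 1 of 7 between Th1 and Th17 (4.77%) and 1 of 7 between Th2 and Th17 (12%). Snhg6 was the member in the Th1 comparisons and Snhg5 the one between Th2 and Th17. Without the Th1 libraries of day 2.5, Th1 was represented by day 3.5 alone, so the Th1 counts that follow also differ from those above in the day covered. There 5 of 7 passed between Th1 and Th2 (46.5% of 13409 genes), with Snhg1, Snhg5 and Snhg12 higher and Snhg6 and Gas5 lower in Th1. Between Th1 and Th17, 4 of 7 passed (30.4%), with Snhg1, Snhg8 and Snhg12 higher and Snhg6 lower. Between Th2 and Th17, a fit of those 8 libraries alone passed 3 of 7 (41.5% of 12415 genes): Snhg5 and Snhg1 lower in Th2, and Snhg8 higher (0.30 ± 0.08, adjusted p = 0.0145). The members' shares that passed are to be read against these shares of all genes. As a description of the days, Snhg1, Snhg5, Snhg8 and Snhg12 were lower at day 3.5 in the 4 Th2 and Th17 series and higher in both Th1 series, a pattern of 12.1% of all genes. Snhg6 and Gas5 were lower in Th1 in each of the 20 alternative fits of both Th1 comparisons; the other 5 members changed sign in at least 1 of these fits.

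**Figure D2:**
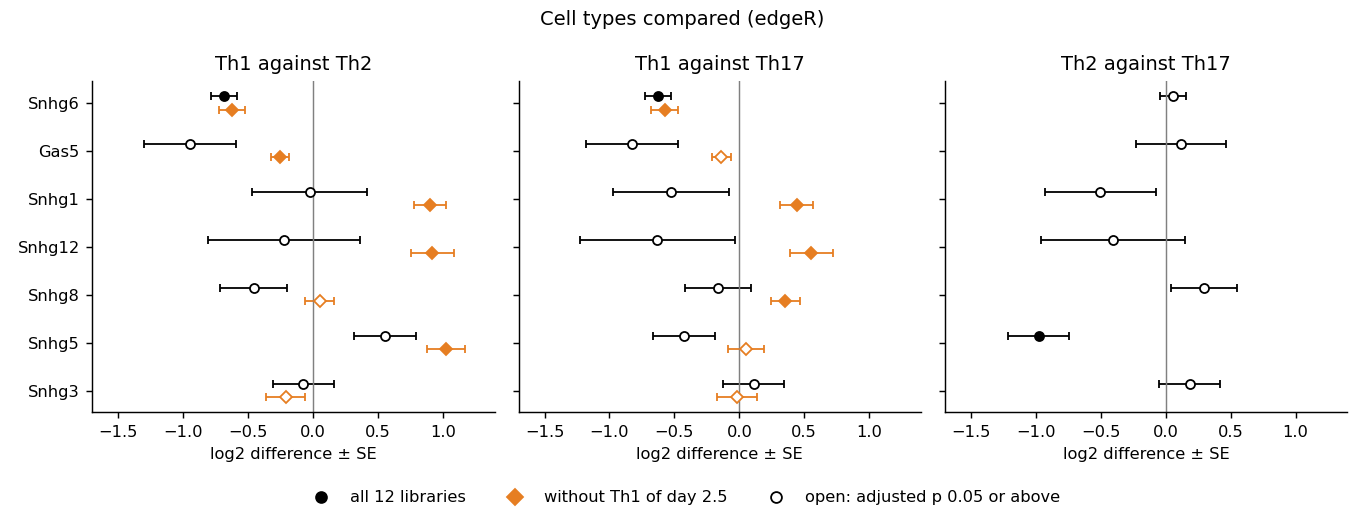
Differences between cell types in log2 units (x axis, ± SE from edgeR) for each host, with all 12 libraries (black circles) and without the 2 Th1 libraries of day 2.5 (orange diamonds); filled symbols have an adjusted p under 0.05. Snhg6 keeps its place below 0 in both Th1 comparisons, while Snhg1 and Snhg12 lie below 0 with all libraries and above 0 without those of day 2.5.

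No difference between genotypes passed in any host, and most pairs differed little. No member passed over the 6 pairs, where no gene did (0% of 12329 by edgeR, 5.81% at an unadjusted p under 0.05, and no member by DESeq2, limma-voom or at an unadjusted p under 0.05). None of the members went the same way in all 6 pairs, as 4.67% of genes did. The log2 difference of NFATc1/ΔS from WT was -0.09 ± 0.07 for Snhg6 (adjusted p = 0.823), lower in 4 of 6 pairs, and -0.05 ± 0.07 for Snhg1 (adjusted p = 0.866), lower in 3 of 6. For Gas5 it was -0.12 ± 0.17 (adjusted p = 0.876), higher in 5 of 6 pairs and lower in the Th1 pair of day 2.5, where the log2 ratio was -1.17. Without both Th1 pairs the Gas5 difference was 0.08 ± 0.06 (adjusted p = 0.663). Snhg12 differed by -0.11 ± 0.15, Snhg8 by -0.08 ± 0.11 and Snhg5 by 0.06 ± 0.11, with adjusted p of 0.877, 0.875 and 0.89. Snhg12 also had its largest ratio, -0.96, in the Th1 pair of day 2.5.

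Over the 4 pairs of Th2 and Th17, 0 of 7 members passed (2.13% of 12415 genes did), with 1 of 7 at an unadjusted p under 0.05, as for 14.1% of genes. That member was Snhg3, at -0.42 ± 0.13 (edgeR adjusted p = 0.113). Snhg3 was lower in NFATc1/ΔS in 5 of 6 pairs and higher in the Th1 pair of day 2.5 with a log2 ratio of 0.91. DESeq2 and limma-voom likewise called no member. No member passed in a test of equal genotype differences in the 3 cell types (adjusted p of 0.974 to 0.982, 0% of genes) or of the genotype by day interaction (adjusted p of 0.983 to 1, 0% of genes, 2.48% unadjusted). Taken 1 cell type at a time, no member passed in Th1 (adjusted p of 0.579 to 0.825), Th2 or Th17 (adjusted p of 1), where 0% of genes did. At an unadjusted p under 0.05 no member passed either, while 5.2% of genes did in Th1, 2.37% in Th2 and 3.16% in Th17.

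**Figure D3:**
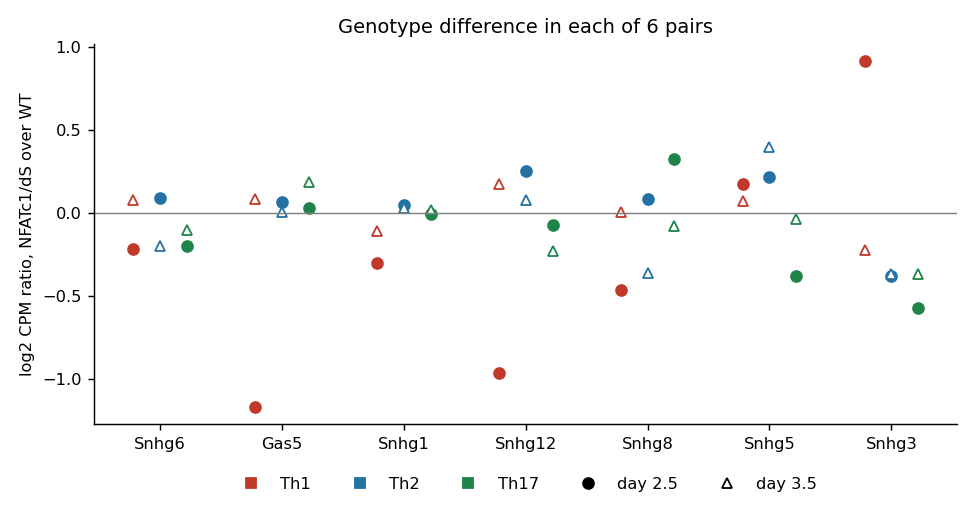
Log2 ratio of CPM, NFATc1/ΔS over WT (y axis), for each host in each of 6 pairs of libraries, coloured by cell type with circles for day 2.5 and triangles for day 3.5. Most points lie near 0; the Th1 pair of day 2.5 stands apart at -1.17 for Gas5, -0.96 for Snhg12 and 0.91 for Snhg3.

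The share of exon reads that cross a splice junction was the nearest measure of splicing in hosts whose introns are annotated as exon. It was a measure added after the data had been seen. Over all genes 26.6 to 27.9% of exon reads crossed a junction. In Gas5, whose exons are short, 95.6% did over the 12 libraries together, in Snhg1 71.2%, in Snhg6 52.5%, in Snhg12 39.5%, in Snhg5 38.4%, in Snhg8 29.4% and in Snhg3 22.6%. The Th1 NFATc1/ΔS library of day 2.5 had the lowest share in 4 hosts, by a margin in 3 of them. There it was 82.7% in Gas5 (95% Wilson interval 80.9 to 84.3) against 93.3 to 97.7% in the other libraries, 50.3% in Snhg1 (46.4 to 54.2) against 65.2 to 77.1%, and 22.2% in Snhg12 (15.4 to 30.9) against 33.7 to 43.6%. Its share in Snhg5, 32.4%, was next to the 32.8% of Th1 WT at day 2.5. Over all genes that library's share, 27.1%, was within the range of the others. Snhg6 kept its share between 48.6 and 54.7% in every library, the Th1 NFATc1/ΔS library of day 2.5 included at 49.5%. Intervals cover counting error only, since reads without molecular identifiers are not independent molecules.

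By day, as a description, the junction share of Gas5 was lower at day 3.5 in 5 of 6 series, with 96.9 to 97.7% at day 2.5 and 94.8 to 95.5% at day 3.5 in Th2 and Th17, and 94.96 and 94.4% in Th1 WT. In Th1 NFATc1/ΔS it went the other way, from 82.7 to 93.3%. The share of Snhg1 was lower at day 3.5 in the 4 Th2 and Th17 series, with 73.9 to 77.1% and then 65.2 to 69.6%. It was higher at day 3.5 in both Th1 series, from 69.4 to 71.3% in WT and from 50.3 to 71.1% in NFATc1/ΔS. Between cell types no share passed. The lowest p was for Snhg5, at 33.6% in Th1 and 41.6% in Th17, a difference of -8.004 percentage points with no overlap (exact permutation test, two-sided, p = 0.0286, the smallest that 4 against 4 libraries allow, adjusted p = 0.438 over 28 tests). In edgeR the junction reads of Snhg5 differed from its other exon reads by -0.44 ± 0.12 between these cell types (adjusted p = 0.136, 0.095% of 9476 genes called). For genotype, Snhg8 had a mean share of 31.2% in NFATc1/ΔS and 27.3% in WT, a difference of 3.91 percentage points (exact permutation test by sign flips, two-sided, p = 0.0625, adjusted p = 0.438); in edgeR it was 0.30 ± 0.09 (adjusted p = 0.562, 0.0218% of 9174 genes called). Gas5 differed by -4.73 percentage points between Th1 and Th2 (exact permutation p = 0.0571, adjusted p = 0.438), and by -2.20 without the Th1 libraries of day 2.5 (p = 0.133, the smallest those libraries allow).

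**Figure D4:**
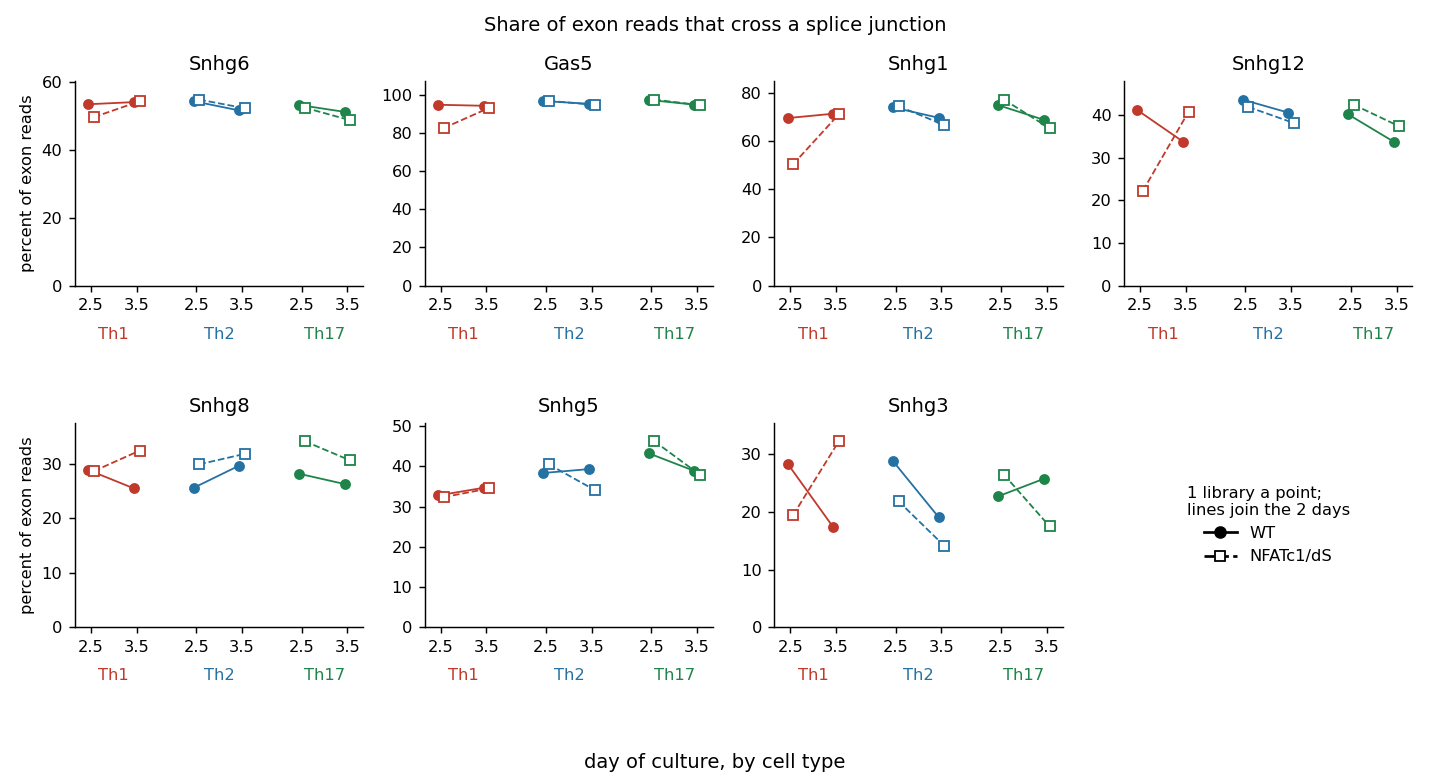
Percent of exon reads that cross a splice junction (linear axis from 0) for each host by day and cell type, 1 point a library, filled for WT and open for NFATc1/ΔS. The Th1 NFATc1/ΔS library of day 2.5 is the lowest point for Gas5 (82.7%), Snhg1 (50.3%) and Snhg12 (22.2%).

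Other genes of the same pathway gave a setting for these values, with lists chosen with earlier results of these data known. Th1 against Th2 is given first, and Th1 against Th17 after the last list. The list counts stand against all genes tested. Of those, 14.6% were higher and 14% lower in Th1 against Th2, and 23.9% and 22.6% without the Th1 libraries of day 2.5. Among the other noncoding hosts, 6 of 13 had enough reads, and 2 were higher in Th1 than in Th2: Snhg20 by 1.34 ± 0.37 (edgeR adjusted p = 0.0257) and Snhg17 by 1.0962 ± 0.36 (adjusted p = 0.0479). Snhg20 was low throughout, at 1.19 to 2.86 CPM in Th1 and 0.229 to 1.32 CPM in Th2. Neither Snhg20 nor Snhg17 was among those called without the Th1 libraries of day 2.5. There 1 of 6 was called, Zfas1, which was higher in Th1 by 0.53 ± 0.09 (edgeR adjusted p = 0.000669). Zfas1, the host of the Snord12 family, was, like Snhg1, higher at day 3.5 in Th1 and lower in the other cell types: 96.6 (WT) and 30.3 CPM (NFATc1/ΔS) in Th1 at day 2.5 and 136 and 166 CPM at day 3.5, but 228.5 and 228.2 and then 110 and 101 CPM in Th2, and 240 and 250 and then 104 and 111 CPM in Th17. Of 40 coding hosts (3 of them also among the particle proteins and 2 among the TOP genes below), Th1 had 3 above and 10 below their Th2 level, with a median log2 difference of -0.36 against 0.07 for all genes. The lower ones included the ribosomal protein genes Rpl21 (-0.62 ± 0.10, adjusted p = 0.00234), Rpl30 (-0.64 ± 0.13, adjusted p = 0.00654) and Rpl13a (-0.74 ± 0.15, adjusted p = 0.00675), and Tnpo2, a nuclear import receptor, was higher (0.55 ± 0.10, adjusted p = 0.00428). Without the Th1 libraries of day 2.5 these counts were 5 higher and 10 lower, with a median of -0.10 against 0.02 for all genes; 10 of 40 lower is near the share of all genes lower.

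Of 21 translation genes with TOP tracts, 7 were lower in Th1 than in Th2 (14% of all genes) and 0 higher (14.6%), with a median of -0.36. Eif4b, an initiation factor, was lower by 0.41 ± 0.09 (edgeR log2 difference -0.41, adjusted p = 0.00812), and Rplp0, a protein of the ribosomal stalk, by 0.54 (log2 difference -0.54 ± 0.12, adjusted p = 0.0125). Without the Th1 libraries of day 2.5, 2 were higher (23.9% of all genes) and 5 lower (22.6%), the latter near the share of all genes. Of 17 proteins of snoRNA particles, Th1 had 4 above and 0 below their Th2 level, with a median of 0.61, beside 14.6% and 14% of all genes: Pih1d1 (0.63 ± 0.13, adjusted p = 0.0068) and Znhit6 (0.86 ± 0.25, adjusted p = 0.0312), assembly factors of C/D particles, and Naf1 (0.70 ± 0.18, adjusted p = 0.0204) and Gar1 (1.00 ± 0.32, adjusted p = 0.0441), an assembly factor and a core protein of H/ACA particles. Without the Th1 libraries of day 2.5 the count was 5 higher and 1 lower, beside 23.9% and 22.6% of all genes, and the median 0.13.

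The lists that follow stand against the same shares of all genes: 14.6% higher and 14% lower with all libraries, 23.9% and 22.6% without the Th1 libraries of day 2.5. Of 22 NMD factors, 1 was higher in Th1 than in Th2, the helicase Upf1 (0.71 ± 0.21, edgeR adjusted p = 0.0346), and 4 were higher and 5 lower without those libraries, near the shares of all genes. Of 12 known NMD substrates, 2 were lower in Th1 than in Th2: Upp1, a uridine phosphorylase (-2.69 ± 0.38, adjusted p = 0.00128), and Gadd45a, a stress-induced gene (-1.45 ± 0.28, adjusted p = 0.0061). Without those libraries 2 were higher and 4 lower. The 2 of 12 lower is near the share of all genes. Of 16 genes of mTOR and Myc control, Myc (0.81 ± 0.12, adjusted p = 0.00196) and its partner Max (0.59 ± 0.14, adjusted p = 0.0167) were higher in Th1 than in Th2. Without those libraries 5 were higher and 4 lower. Of 12 genes of naive T cells, 1 was higher and 5 lower in Th1, among them Foxo1 (-1.40 ± 0.20, adjusted p = 0.00155) and S1pr1 (-1.02 ± 0.21, adjusted p = 0.0078), and 2 were higher and 7 lower without those libraries. For Th1 against Th17 fewer genes of each list passed, as for all genes (4.77%). None passed among the other noncoding hosts, TOP genes, particle proteins, NMD factors, NMD substrates or mTOR and Myc genes. Of 40 coding hosts 1 was lower, and of 12 naive T cell genes 1 was higher and 4 lower. Without the Th1 libraries of day 2.5 every list had called genes in this comparison, where 30.4% of all genes passed. Over the 6 genotype pairs 0 members of any of these lists were called. Over the 4 Th2 and Th17 pairs, Upp1 was lower in NFATc1/ΔS by 1.13 (log2 difference -1.13 ± 0.09, adjusted p = 5.85e-06), Txnip was higher (0.34 ± 0.06, adjusted p = 0.00698) and Il7r lower (-0.38 ± 0.08, adjusted p = 0.0219).

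Genes within 5 kb of a host were read beside it. Zbtb37, a zinc finger gene that overlaps the start of Gas5 over 428 bases on the other strand, was at 5.50 to 11.6 CPM. Slc3a2, which codes for a chain of amino acid transporters and lies 106 bases from Snhg1 on the other strand, was highest in Th1 at day 2.5, at 307 and 213 CPM, against 135 to 193 CPM elsewhere; Snhg1 was lowest in those 2 libraries. Prss12, a protease gene 955 bases from Snhg8, was at 0.458 to 1.98 CPM in Th1 and 4.15 to 10.3 CPM in Th2, lower in Th1 by 2.76 (log2 difference -2.76 ± 0.61, adjusted p = 0.0108). Gm22985, Gm37362 and Gm37634 were at or near 0. Trnau1ap, 739 bases from Snhg12, was at 20.4 to 29.9 CPM and Phactr4, 2237 bases from Snhg3, at 14.7 to 28.4 CPM.

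Among themselves, the members differed in how their levels ran over the 12 libraries, which share both depth and the library of origin. Snhg1 and Snhg12 had the highest correlation of log2 CPM (Pearson r = 0.97), followed by Snhg8 with Gas5 (0.88) and Snhg12 with Gas5 (0.87). Snhg6 correlated with Gas5 at 0.71 and with Snhg1 at 0.52, and Snhg5 with Snhg1 at 0.72 and with Snhg8 at 0.13. Snhg3 correlated between -0.26 and 0.24 with the others. The libraries fall apart by day and cell type, so these values describe the course over the conditions and carry no p.

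Among 10205 other named genes, those most like Snhg6 were Eno1, an enzyme of glycolysis (r = 0.95), Slc25a45, a mitochondrial carrier, Ap3s1, a subunit of an adaptor complex, Ttc33 and Itprid2 (r of 0.93 to 0.94). Those most like the mean of the 7 members were Atf7, a transcription factor of the ATF family (r = 0.99), Gde1 (0.98), Cmip (0.98), Rpusd4, a mitochondrial pseudouridine synthase (0.96), and Smad4, the shared mediator of TGFβ signals (0.96). Of the lists, all 21 translation genes with TOP tracts had a positive r with the mean of the members, with a median of 0.71, as had 28 of 40 coding hosts (median 0.67) and 10 of 12 naive T cell genes (median 0.66). Proteins of snoRNA particles ran the other way, with a positive r in 1 of 17 and a median of -0.67. The other noncoding hosts, the list closest in kind to the members, had a positive r in 2 of 6, with a median of -0.44. The positive ones were Zfas1 (0.87), the most abundant of the 6 at 30.3 to 249.5 CPM, and Dancr (0.62). Snhg14 (-0.66), Snhg17 (-0.64), Snhg20 (-0.54) and Snhg15 (-0.34) ran the other way. Snhg14, Snhg20 and Dancr were at most at 2.995 CPM in any library, so their r rests on few reads. NMD factors had a positive r in 10 of 22 (median -0.09), NMD substrates in 5 of 12 (median -0.18) and mTOR and Myc genes in 7 of 16 (median -0.21). Over all 12790 other genes tested 6161 had a positive r and the median was -0.03.

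**Figure D5:**
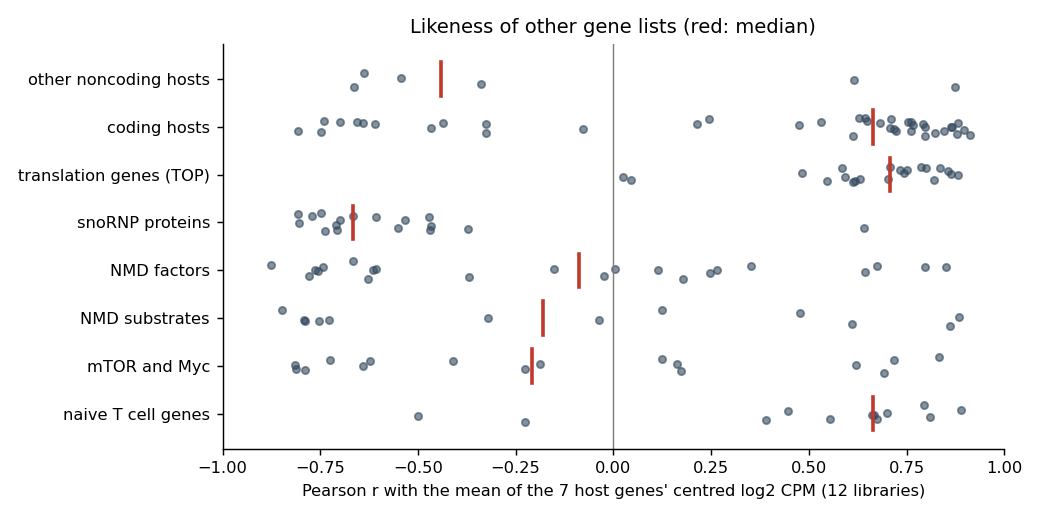
Pearson r over 12 libraries (x axis) between the log2 CPM of each gene of 8 lists (rows, 1 point a gene, red line at the median) and the mean of the 7 hosts' centred log2 CPM. Translation genes with TOP tracts lie above 0 (median 0.71) and proteins of snoRNA particles mostly below it (median -0.67). Other noncoding hosts lie on both sides, with 2 of 6 above 0 (median -0.44) and Zfas1 the highest at 0.87.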

How the data were processed

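RNA was measured in 12 libraries of mouse T helper cells. The deposited tables hold whole-number read counts per gene (total, unique, exon, exon-exon and intron reads), not normalized, per the file headers. The build is GRCm38 per the submitters' processing notes; which aligner and counter were used is not stated in those notes or in the labels. Depth was 13417121 to 17774400 reads in genes per library, and no column was left unassigned (0). The deposited TPM and RPKM columns were not used.

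Total gene reads were tested with edgeR 4.0.16 (R 4.3.3): TMM, filterByExpr (minimum count 10, minimum total 15), quasi-likelihood F test, Benjamini-Hochberg over all genes tested, threshold 0.05. The 4 combinations of genotype and day were blocks for cell types, and the 6 of cell type and day for genotypes. Fold changes are log2, with SE from the F statistic; CPM are TMM-scaled, and log2 CPM use a prior count of 2. Exon against intron or junction reads were fitted as 2 columns a library. Shares of reads were tested by exact permutation (scipy 1.17.1). DESeq2 1.42.0, limma-voom (limma 3.58.1), RLE scaling, other filters, other read classes, no blocks and left-out libraries were alternatives. The fits were also run on simulated counts with known changes. Those counts had the same spread for all genes and independent libraries, so that run does not test the calls made here.

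The members, gene lists and tests were chosen with earlier results of these data known. Named genes are the 7 members, up to 4 called genes of each list by unadjusted p, genes within 5 kb of a member, and the 5 genes most correlated with Snhg6 or with the members' mean (mean log2 CPM of at least 1, leaving out clone, predicted, segment and pseudogene symbols). Lists: other noncoding hosts, coding hosts, snoRNA-particle proteins, NMD factors, NMD substrates, TOP genes, mTOR and Myc, naive T cell genes, T helper lineage, B cell, dendritic and myeloid, CD8 T and NK, and erythroid markers. The labels' replicate numbers do not pair libraries; pairs come from cell type and day. Some items are not reported here.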

Additional observations from a re-analysis of the deposited data

Results flagged for a closer look

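In 49 sets of 4 or 6 values, 5 had 1 value far from the others by Dixon's 95% limit. For independent sets of like values chance would give about 1 in 20, or 2.5 of 49. The sets here share libraries and mix days with genotypes or cell types, so that rate is no valid measure for the 5. All 5 were in the Th1 NFATc1/ΔS library of day 2.5 or its pair. The log2 ratio of NFATc1/ΔS to WT in that pair stood apart from the other 5 pairs for Gas5, at -1.17 against 0.01 to 0.19, and for Snhg3, at 0.91 against -0.57 to -0.22. Among the 4 Th1 libraries, that library stood apart for the Gas5 level, at 120 CPM against 260 to 276, for the Gas5 junction share, at 82.7% against 93.3 to 94.96%, and for the Snhg1 junction share, at 50.3% against 69.4 to 71.3%.

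A total of 4 members had day differences of opposite sign in the 2 Th1 series and the 4 Th2 and Th17 series; the difference was not tested. The mean log2 ratio of day 3.5 to day 2.5 in Th1 was 0.96 for Snhg1, 0.22 for Snhg5, 0.45 for Snhg8 and 1.43 for Snhg12, against -1.20, -0.77, -0.66 and -1.38 in Th2 and Th17.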

How the results depend on the processing

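The count of members called moved as follows, out of 7. For Th1 against Th2 it was 1, and 2 with DESeq2 (Snhg6 and Gas5, the latter at -0.98, adjusted p = 0.0173), 5 without both Th1 libraries of day 2.5, and 1 to 2 with 1 library left out; without blocks it was 1, but Gas5 in place of Snhg6. For Th1 against Th17 it was 1, and 0 without blocks, 4 without both Th1 libraries of day 2.5, and 0 to 1 with 1 library left out. For Th2 against Th17 it was 1, and 3 in the 8 Th2 and Th17 libraries alone (Snhg5 and Snhg1 lower in Th2, Snhg8 higher), and 0 to 1 with 1 library left out. The genotype counts were 0 under every alternative run. Snhg6 stayed lower in Th1 in 20 of 20 alternatives for both comparisons; it was called in 19 against Th2 and in 18 against Th17, missing without blocks (adjusted p = 0.134 and 0.242) and, against Th17, without the Th17 WT library of day 2.5. Signs turned without both Th1 libraries of day 2.5 against Th2 for Snhg1 (0.8995), Snhg8 (0.0509) and Snhg12 (0.9187), and against Th17 for Snhg1 (0.4426), Snhg3 (-0.0177), Snhg5 (0.0521), Snhg8 (0.3544) and Snhg12 (0.5555); with unique reads Snhg3 turned against Th2 (0.0656). For genotype over 6 pairs signs turned without both Th1 pairs for Snhg1 (0.0239), Snhg8 (0.0021), Snhg12 (0.0107) and Gas5 (0.0753), and without blocks for Snhg5 (-0.0147). Over the 4 Th2 and Th17 pairs they turned for Snhg5 with limma-voom (-0.0416) and without blocks (-0.0755), and for Snhg8 with DESeq2 (-2e-04). For the genotype by day interaction they turned for Snhg1 without a filter (0.0057) and with exon reads (0.0289), for Snhg3 with unique reads (0.0864), and without the Th1 pair of day 2.5 for Snhg3 (0.1509), Snhg6 (-0.0247) and Snhg12 (-0.0562). With 1 library left out, Th1 against Th2 ran from -0.4525 to 0.3538 for Snhg1, -0.364 to 0.1144 for Snhg3 and -0.821 to 0.2938 for Snhg12; Th1 against Th17 from -0.1715 to 0.3021 for Snhg3 and -0.3982 to 0.1139 for Snhg8; Th2 against Th17 from -0.1217 to 0.3687 for Gas5. With 1 pair left out, genotype over 6 pairs ran from -0.0012 to 0.1575 for Snhg5, -0.1621 to 0.0017 for Snhg8, -0.186 to 0.0446 for Snhg12 and -0.1867 to 0.077 for Gas5, and over 4 pairs from -0.0925 to 0.1836 for Snhg5, -0.1005 to 0.1195 for Snhg8 and -0.0727 to 0.0793 for Snhg12. The cause was not tested. Few reads limit Snhg3 (70 to 154 a library) and the introns of Snhg6 (5 to 24). The libraries carry no numbers that pair them beyond cell type and day.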
